A study of Rattus norvegicus with 30 samples.

Results

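A set of 10 genes that the transcription factor p53 switches on was followed through the stomach, jejunum and colon of rats given irinotecan. They were Cdkn1a, Mdm2, Ccng1, Plk2, Aen, Bbc3, Gdf15, Zmat3, Sesn1 and Ei24. They were chosen by name, as known targets of p53, out of 14217 genes with a probe set that carries 1 gene symbol. Earlier results of these data were known when they were chosen, so the choice is not independent of the data. They had 15 probe sets among the 31042 tested. Where a gene had more than 1, it was represented by the probe set with the highest mean over all 30 arrays, and the others served as a check. All values below are log2 signals from Affymetrix rat arrays.

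The study used 30 female DA rats, 10 weeks old. Irinotecan, a topoisomerase poison given against bowel cancer, was injected once into the peritoneum at 200 mg/kg under light halothane, and rats were killed 1, 6, 24 or 72 h later. Rats killed at 0 h got no irinotecan and are the controls. Each time had 6 rats, and RNA from whole stomach, jejunum and colon was pooled from 3 rats, which gave 2 arrays for each of 15 groups. A group is 1 of the 3 tissues at 1 of the 5 times, and the labels name no altered gene in any of them. Stomach, jejunum and colon of a time were taken from the same animals. The sources used here do not say whether pools of equal number share their rats, nor whether the controls had a sham injection or halothane. A p-value here measures the spread between pools of 3 rats, not between single rats. The arrays carry RNA of whole tissue, so fewer cells of a type and less RNA per cell cannot be told apart.

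Irinotecan's active form traps topoisomerase on DNA, and replication forks that meet the trapped enzyme break. The kinases Atm and Atr then free p53 from Mdm2, the ligase that marks it for destruction, and p53 binds DNA near its targets and raises their transcription. In the gut p53 is known for arrest and death of dividing crypt cells after DNA damage. Cdkn1a encodes p21, which blocks cyclin-dependent kinases and so halts the cell cycle. Ccng1 encodes a cyclin that brings a phosphatase to Mdm2, and Plk2 a polo-like kinase that is induced by stress. Aen is a nuclease that cuts DNA in dying cells, and Bbc3 encodes PUMA, which opens mitochondria to apoptosis by binding the Bcl2 family. Ei24 lies in the membrane of the endoplasmic reticulum and is tied to autophagy and cell death. Zmat3 is a zinc finger protein that binds RNA. Gdf15 is a secreted stress hormone that curbs appetite, and Sesn1 is a sestrin that holds back the growth kinase complex mTORC1.

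The promoters of 4 genes are shown because they hold the letters p53 is known to read, and because they belong to genes described at length below. The p53 consensus is a pair of 10-base sites, and it was searched without a spacer over 300 bases, from 250 before to 50 after each gene's start, in RefSeq's GRCr8 windows. The motif reads the same on both strands. Windows were given for 8 of the 10 genes, and Gdf15 had 2 of them. The promoters of Bbc3 and Zmat3 were not analysed here. Capitals mark the 20-base pair in the first 3 sequences and a single exact 10-base site in that of Sesn1. Each is written 5′ to 3′ along the gene's strand. Cdkn1a is from chr20:7150711-7150770 (+), Ccng1 from chr10:25685079-25685126 (-), Aen from chr1:142224483-142224532 (+) and Sesn1 from chr20:46948527-46948576 (+).
Cdkn1a: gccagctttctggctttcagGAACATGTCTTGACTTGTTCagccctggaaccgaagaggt
Ccng1: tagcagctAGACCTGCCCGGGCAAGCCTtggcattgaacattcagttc
Aen: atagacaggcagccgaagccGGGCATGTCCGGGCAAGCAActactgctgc
Sesn1: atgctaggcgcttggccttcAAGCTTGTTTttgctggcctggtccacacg

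The pair in Cdkn1a begins 201 bases before the gene's start and has 1 mismatch. That in Ccng1 begins 242 bases before the start and also has 1 mismatch, and that in Aen begins 30 bases before the start and has 2. With up to 2 mismatches in 20 bases, and the C and G of each core kept, 3 of the 8 genes had a pair, against 112 of 33469 promoter windows (0.335%). An exact 10-base site was found in 5 of the 8, with Sesn1 and Ei24 added, against 7.98% of all windows. Mdm2, Plk2 and Gdf15 had neither in their windows. These are matches of letters in a short window and say nothing of binding, and known p53 sites can lie outside it.

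Array medians ran from 6.965 to 7.055 and correlations of replicate arrays over probe sets from 0.9469 to 0.9959. The values were deposited after processing, so these figures alone do not show that the arrays are comparable. Each tissue carried its own transcripts. Atp4a, the stomach's proton pump, lay at 12.77 to 13.55 in the stomach, Apoa4 of small intestinal enterocytes at 13.63 to 14.04 in the jejunum, and Car1 of colonocytes at 11.99 to 13.44 in the colon. Outside these tissues Atp4a reached 9.41 in the colon, and Apoa4 9.62 in the stomach and 10.31 in the colon. Some arrays stood apart. The 3′ signal of GAPDH lay above its 5′ signal by 0.816 on jejunum 24 h replicate 1 and by 0.557 on stomach 24 h replicate 1. The median of 13 pancreatic acinar genes was 13.418 on stomach 72 h replicate 1, 12.145 on colon 72 h replicate 2 and 9.197 on colon 6 h replicate 1. On colon 24 h replicate 1 the median of the stomach's parietal and chief cell genes was 9.412. The median of 6 enterocyte genes was 9.767 on stomach 72 h replicate 1, 9.745 on colon 24 h replicate 2 and 8.793 on colon 0 h replicate 2. Where calls differ without the arrays of wide GAPDH gap or acinar transcripts, the change, call or count without them is given.

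Most calls were in the jejunum. At 6 h Ccng1 there rose 2.98-fold, Plk2 2.16-fold, Cdkn1a 1.88-fold, Aen 1.48-fold, Mdm2 1.37-fold and Zmat3 1.27-fold. At 72 h Ccng1, Plk2, Aen and Gdf15 were above 0 h and Sesn1 had fallen. In the colon Plk2 rose at 72 h, and in the stomach no gene of the 10 passed the test at any time. The share of all probe sets called also differed between tissues. A moderated F test over the time course passed for 19.2% in the jejunum, 4.59% in the colon and 0.0387% in the stomach. These are limma tests with p adjusted over all 31042 probe sets, and a gene is said to rise or fall where the adjusted p is under 0.05. The comparisons within a tissue share the same 0 h arrays.

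**Figure D1:**
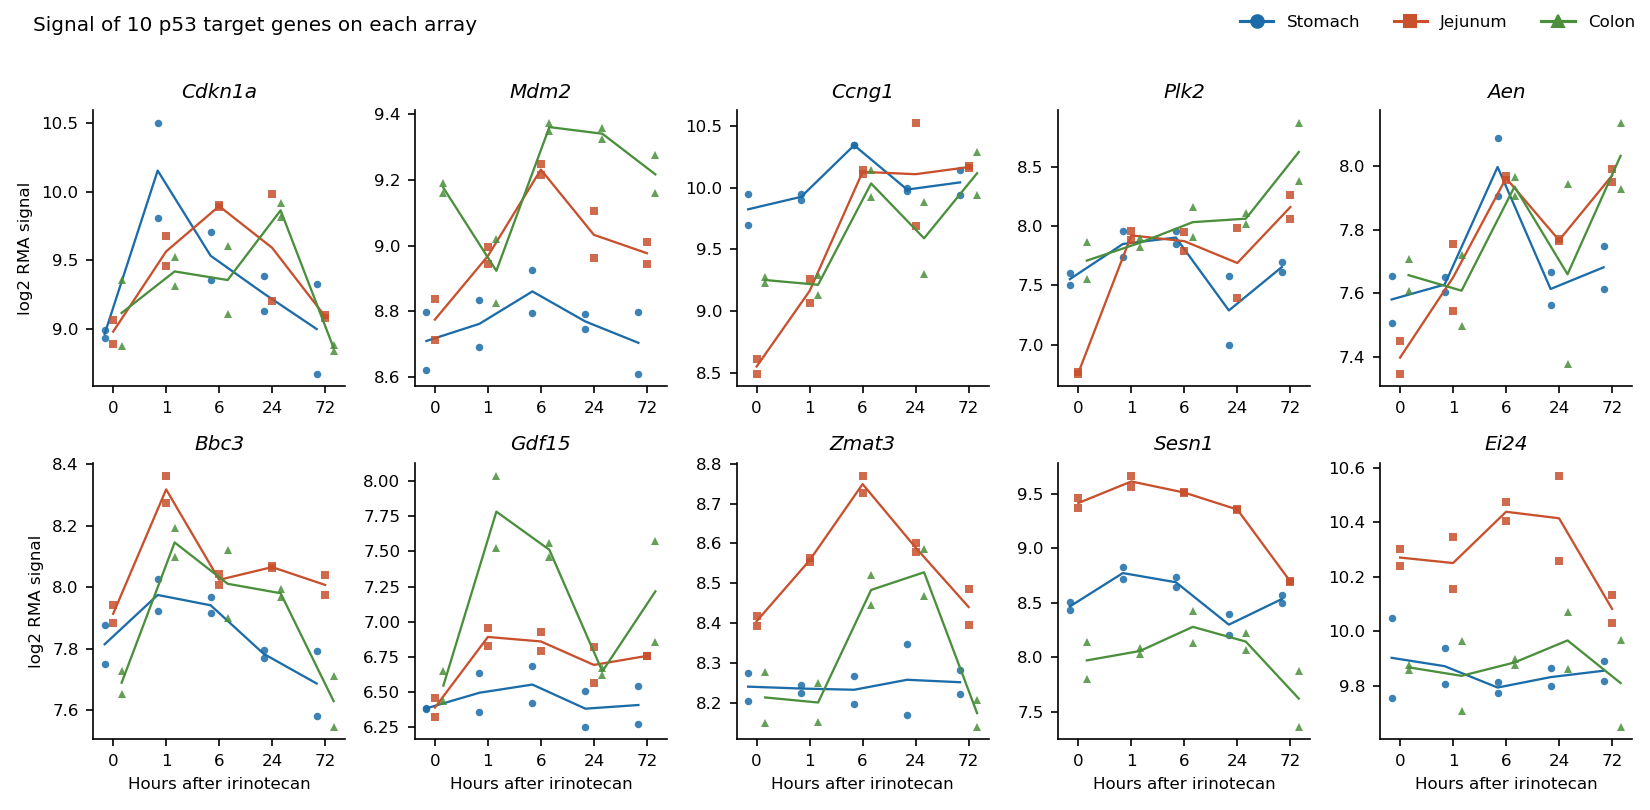
Log2 signal of each of the 10 p53 target genes on every array, by hours after irinotecan (evenly spaced steps, not to scale), with 1 panel per gene, points for the 2 arrays of a group and lines through group means in stomach, jejunum and colon. Jejunal Ccng1 climbs from 8.61 and 8.49 at 0 h to 10.17 and 10.16 at 72 h, while jejunal Sesn1 drops from 9.46 and 9.37 to 8.69 and 8.70.

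Among the arrest genes, Ccng1 had the largest change that passed. In the jejunum its log2 signal was 8.61 and 8.49 at 0 h, 9.07 and 9.26 at 1 h, 10.11 and 10.14 at 6 h, 9.69 and 10.52 at 24 h, and 10.17 and 10.16 at 72 h. Every dosed array lay above both control arrays, and the arrays from 6 h onward lay above those of 1 h. The change from 0 h was 1.57 (SE 0.21, adjusted p = 0.00874) at 6 h, 1.56 (SE 0.21, adjusted p = 0.0301) at 24 h and 1.61 (SE 0.21, adjusted p = 0.00197) at 72 h. At 1 h it was 0.61 (adjusted p = 0.944). Ccng1 also rose between 1 h and 6 h, by 0.96 (SE 0.21, adjusted p = 0.0499), a step in which 1.83% of all probe sets rose. This last call was lost when either 1 h array or either 6 h array was left out, where the change was 0.87 to 1.06.

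Colonic Ccng1 stood higher than jejunal Ccng1 before dosing. It was 9.28 and 9.23 at 0 h, 9.13 and 9.29 at 1 h, 9.93 and 10.14 at 6 h, 9.30 and 9.88 at 24 h, and 10.29 and 9.94 at 72 h. The arrays of 6, 24 and 72 h lay above those of 0 h, and those of 1 h overlapped them. Its changes of 0.78 at 6 h (adjusted p = 0.0866) and 0.86 at 72 h (adjusted p = 0.0522) missed the threshold. Over the whole time course in the colon Ccng1 passed a moderated F test (adjusted p = 0.0378), a call that was lost without the arrays with pancreatic transcripts. In the stomach Ccng1 was 9.95 and 9.70 at 0 h and 10.34 and 10.34 at 6 h, a change of 0.52 (SE 0.11, adjusted p = 0.187), and 9.94 and 10.14 at 72 h.

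Jejunal Plk2 stood high from the first hour on. Its signal there was 6.77 and 6.75 at 0 h, 7.96 and 7.89 at 1 h, 7.79 and 7.95 at 6 h, 7.39 and 7.99 at 24 h, and 8.06 and 8.26 at 72 h. All dosed arrays lay above the controls, and those of 1 h and 6 h overlapped each other. The change of 1.16 at 1 h (SE 0.17) had an adjusted p of 0.107, and it passed under 3 of the other settings tried, those with 1 fit of all 30 arrays, with array weights or without the arrays of high GAPDH gap. At 6 h the change was 1.11 (SE 0.17, adjusted p = 0.0122), at 24 h 0.93 (adjusted p = 0.061) and at 72 h 1.40 (SE 0.17, adjusted p = 0.00141).

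In the colon Plk2 rose at the last time. It was 7.56 and 7.86 at 0 h, 7.90 and 7.82 at 1 h, 7.91 and 8.16 at 6 h, 8.02 and 8.11 at 24 h, and 8.87 and 8.38 at 72 h. Both arrays of 72 h lay above all others of the colon. The rise at 72 h was 0.92 (SE 0.17, adjusted p = 0.0315). That call was lost when either 0 h array or colon 72 h replicate 1 was left out, with changes from 0.67 to 1.16 over the 4 arrays left out in turn. Without colon 72 h replicate 2, the array with pancreatic transcripts, the change was 1.16 and passed, with the 1 array left at 72 h assumed to vary like the other groups. Gastric Plk2 ran from 7.00 to 7.96 with its lowest array at 24 h, and no time passed.

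Cdkn1a, the p21 gene, rose in the jejunum at 6 h. It was 8.89 and 9.07 at 0 h, 9.45 and 9.67 at 1 h, 9.90 and 9.89 at 6 h, 9.98 and 9.20 at 24 h, and 9.11 and 9.08 at 72 h. The arrays of 6 h agreed closely with each other, those of 24 h were far apart, and those of 72 h lay just above the controls. The rise at 6 h was 0.91 (SE 0.21, adjusted p = 0.0476), and the change at 72 h was 0.11. In the stomach Cdkn1a was 8.93 and 8.99 at 0 h and 9.81 and 10.50 at 1 h, the highest array of all 30, yet this change of 1.19 (SE 0.27) had an adjusted p of 0.54. Gastric Cdkn1a then stood at 9.36 and 9.71 at 6 h, 9.13 and 9.39 at 24 h, and 9.33 and 8.67 at 72 h.

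Colonic Cdkn1a peaked at 24 h. It was 9.36 and 8.88 at 0 h, 9.31 and 9.52 at 1 h, 9.61 and 9.11 at 6 h, 9.81 and 9.91 at 24 h, and 8.88 and 8.84 at 72 h. The arrays of 24 h were the highest of the colon and those of 72 h among the lowest. The parietal and chief cell median was 9.412 on replicate 1 of 24 h, and the enterocyte median was 9.745 on replicate 2. Their part in this course was not tested. Against 0 h the change at 24 h was 0.75 (adjusted p = 0.0895). From 24 h to 72 h Cdkn1a fell by 1.00 (SE 0.18, adjusted p = 0.0151), in a step in which 2.33% of all probe sets fell. That call was lost when replicate 1 of 24 h or replicate 1 of 72 h was left out, with changes from -1.05 to -0.95. A second probe set of Cdkn1a, dim at a mean of 6.78, did not follow: it changed by 0.43 over the same step and by 0.02 in the jejunum at 6 h.

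Mdm2, which closes the feedback loop on p53, also rose in the jejunum at 6 h. Its signal was 8.71 and 8.84 at 0 h, 8.94 and 8.99 at 1 h, 9.22 and 9.25 at 6 h, 8.96 and 9.10 at 24 h, and 8.94 and 9.01 at 72 h. The arrays of 6 h were the highest of the jejunum and all dosed arrays lay above the controls. The rise at 6 h was 0.46 (SE 0.09, adjusted p = 0.0251), and the change at 72 h was 0.20 (adjusted p = 0.11). The other probe sets of Mdm2 read 0.57 (adjusted p = 0.0341) and 0.48 (adjusted p = 0.0842) at 6 h. At 72 h they read 0.63 (adjusted p = 0.00754) and 0.63 (adjusted p = 0.012), so the probe sets of Mdm2 differ on whether it was still raised then. In the colon Mdm2 was 9.16 and 9.19 at 0 h, 8.83 and 9.02 at 1 h and 9.35 and 9.37 at 6 h, and in the stomach all 10 arrays lay between 8.61 and 8.93.

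Of the genes tied to cell death, Aen rose at 6 h and at 72 h. In the jejunum it was 7.35 and 7.45 at 0 h, 7.54 and 7.76 at 1 h, 7.97 and 7.96 at 6 h, 7.77 and 7.76 at 24 h, and 7.95 and 7.99 at 72 h. All dosed arrays lay above the controls. The rise was 0.57 at 6 h (SE 0.09, adjusted p = 0.0153) and 0.57 at 72 h (SE 0.09, adjusted p = 0.00385). A second, dim probe set of Aen with a mean of 6.26 read 0.09 at 6 h and 0.49 at 72 h (adjusted p = 0.0347). Gastric Aen was 7.66 and 7.51 at 0 h and 8.09 and 7.91 at 6 h, a change of 0.42 (adjusted p = 0.269). Colonic Aen was 7.61 and 7.71 at 0 h, 7.91 and 7.97 at 6 h, 7.38 and 7.94 at 24 h, and 8.14 and 7.93 at 72 h.

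Bbc3 was highest at 1 h in each tissue. In the jejunum it was 7.88 and 7.94 at 0 h, 8.36 and 8.27 at 1 h, 8.01 and 8.04 at 6 h, 8.07 and 8.06 at 24 h, and 7.98 and 8.04 at 72 h. In the colon it was 7.73 and 7.65 at 0 h, 8.10 and 8.19 at 1 h, 8.12 and 7.90 at 6 h, 7.99 and 7.97 at 24 h, and 7.55 and 7.71 at 72 h. In the stomach it was 7.88 and 7.75 at 0 h and 8.03 and 7.92 at 1 h. In all 3 tissues both arrays of 1 h lay above both controls. The changes at 1 h, 0.40 in the jejunum (adjusted p = 0.293) and 0.46 in the colon (adjusted p = 0.286), did not pass, and this order of the times is a description.

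Zmat3 rose in the jejunum at 6 h. It was 8.42 and 8.39 at 0 h, 8.56 and 8.55 at 1 h, 8.73 and 8.77 at 6 h, 8.58 and 8.60 at 24 h, and 8.49 and 8.40 at 72 h. The arrays of 6 h were highest and those of 72 h overlapped the controls. The rise at 6 h was 0.34 (SE 0.07, adjusted p = 0.0399). Colonic Zmat3 was 8.28 and 8.15 at 0 h, 8.52 and 8.45 at 6 h, 8.47 and 8.59 at 24 h, and 8.14 and 8.21 at 72 h. Gastric Zmat3 stayed between 8.17 and 8.35. Ei24, the brightest of the 10 probe sets with a mean of 10.01, passed at no time. Its jejunal arrays ran from 10.03 to 10.57, its gastric arrays from 9.76 to 10.05 and its colonic arrays from 9.65 to 10.07, and the change in the jejunum at 6 h was 0.17.

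The secreted hormone gene, Gdf15, varied most in the colon, between arrays at 6.44 and 8.04. There it was 6.44 and 6.65 at 0 h, 7.53 and 8.04 at 1 h, 7.56 and 7.46 at 6 h, 6.67 and 6.62 at 24 h, and 6.86 and 7.57 at 72 h. The arrays of 1 h and 6 h lay well above the controls, those of 24 h overlapped them, and those of 72 h lay above them but apart from each other. The change was 1.24 at 1 h (SE 0.22, adjusted p = 0.235), 0.97 at 6 h (SE 0.22, adjusted p = 0.0775) and 0.67 at 72 h (adjusted p = 0.157). No single time passed, while the F test over the colon's time course did (adjusted p = 0.03). In the jejunum Gdf15 was 6.32 and 6.46 at 0 h, 6.96 and 6.82 at 1 h, 6.79 and 6.93 at 6 h, 6.56 and 6.82 at 24 h, and 6.75 and 6.76 at 72 h. All dosed arrays lay above the controls, and the change was 0.47 at 6 h (adjusted p = 0.0504) and 0.37 at 72 h (SE 0.11, adjusted p = 0.0387). Gastric Gdf15 lay between 6.25 and 6.68. The mean of this probe set, 6.77, is under the median of all probe set means, 7.028.

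Sesn1 fell in the jejunum. It was 9.46 and 9.37 at 0 h, 9.56 and 9.67 at 1 h, 9.51 and 9.51 at 6 h, 9.35 and 9.36 at 24 h, and 8.69 and 8.70 at 72 h. The arrays of 72 h lay below all other jejunal arrays. Sesn1 fell by 0.72 (SE 0.08, adjusted p = 0.000884) against 0 h and by 0.66 (SE 0.08, adjusted p = 0.00183) between 24 h and 72 h, when 4.15% of all probe sets fell. The second probe set of Sesn1 changed by -0.29 (SE 0.29, adjusted p = 0.478) at 72 h, so the fall rests on 1 probe set. Colonic Sesn1 was 8.14 and 7.80 at 0 h and 7.37 and 7.88 at 72 h, with overlap, and 8.13 and 8.43 at 6 h. In the stomach it was 8.50 and 8.43 at 0 h, 8.83 and 8.72 at 1 h, and 8.57 and 8.50 at 72 h.

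**Figure D2:**
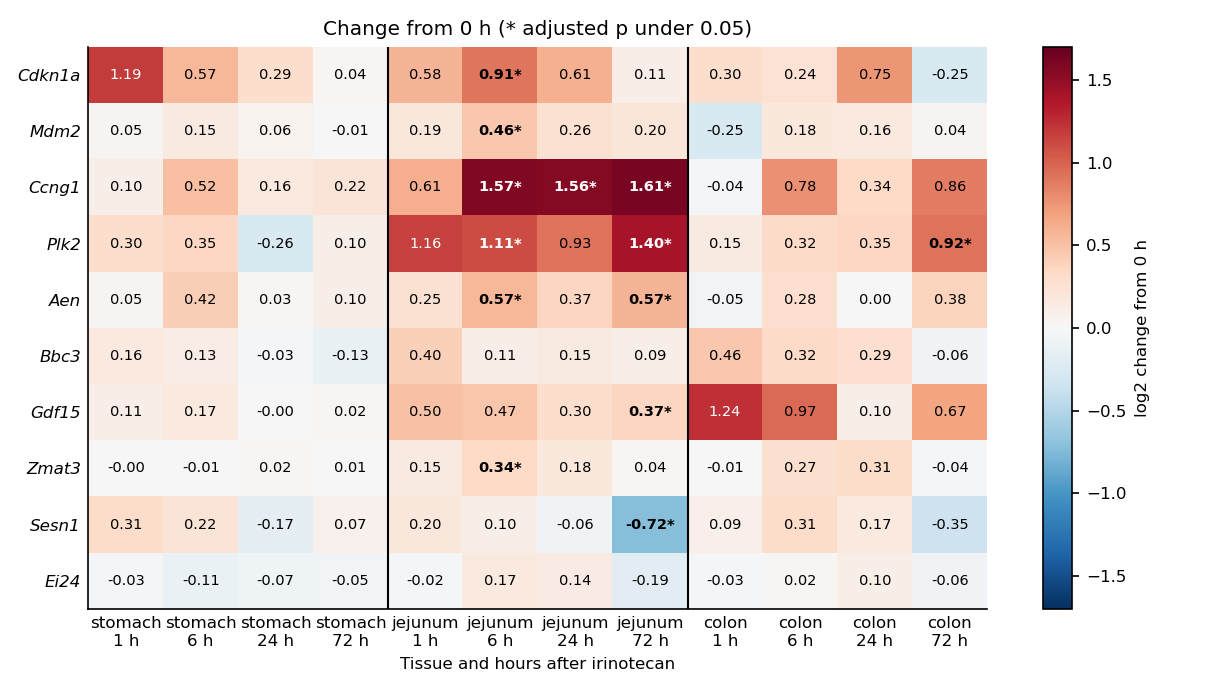
Log2 change from 0 h of the 10 p53 target genes (rows) at 1, 6, 24 and 72 h in stomach, jejunum and colon (columns), as colour and printed value, with a star where limma's adjusted p is under 0.05. Stars stand at 6 genes in the jejunum at 6 h, 1 at 24 h and 5 at 72 h, at Plk2 in the colon at 72 h, and at none in the stomach.

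Counted together, 6 of the 10 genes rose in the jejunum at 6 h and 0 fell, where 2.3% of all probe sets rose and 1.19% fell. The median change of the 10 was 0.463, against -0.023 over all probe sets, and for all 10 both arrays of 6 h lay above both controls, which held for 27.3% of all probe sets. When either 0 h array or either 6 h array was left out, 0 of these 6 calls remained. The changes themselves stayed at 1.52 to 1.63 for Ccng1, 1.03 to 1.19 for Plk2, 0.83 to 1.00 for Cdkn1a, 0.51 to 0.62 for Aen, 0.40 to 0.52 for Mdm2 and 0.32 to 0.37 for Zmat3. Of 7 other settings, which kept all arrays of 0 h and 6 h, Ccng1, Plk2 and Aen passed under 7, Mdm2 under 6, Zmat3 under 4 and Cdkn1a under 3. Quantile normalization ended the calls of Mdm2, Zmat3 and Cdkn1a. A trend with robust variances ended those of Zmat3 and Cdkn1a, and so did the replicate number as a block. That of Cdkn1a was also lost with 1 fit of all 30 arrays.

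At the other jejunal times the counts were lower or mixed. At 1 h 0 of the 10 passed (0.0354% of all probe sets rose), 8 had an unadjusted p under 0.05 (4.73% of all probe sets), and the median was 0.328 against -0.003. At 24 h 1 rose, Ccng1, where 0.319% of all probe sets rose, and the median was 0.281 against -0.013. The call of Ccng1 was lost when either 0 h array was left out. Jejunum 24 h replicate 1 is the array with the widest GAPDH gap. Without it the change of Ccng1 was 1.97, and without replicate 2 of 24 h it was 1.14, with 1 array left at 24 h in each case.

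By 72 h 23.9% of all probe sets had changed in the jejunum, and the counts are read against that. Of the 10 genes 4 rose, where 11.9% of all probe sets rose, and 1 fell, where 12% fell. The median of the 10 was 0.156 against -0.067. Each array left out in turn left 4 calls, Ccng1 at 1.55 to 1.67, Plk2 at 1.30 to 1.50, Aen at 0.52 to 0.62 and Sesn1 at -0.76 to -0.68. The call of Gdf15 was lost whichever 0 h or 72 h array was left out, at 0.30 to 0.44. Markers of other cells moved at the same time. Of 8 macrophage genes 4 rose, with the list's median level at 7.064 and 7.039 on the 0 h arrays and 7.829 and 7.734 on those of 72 h. Of 7 smooth muscle genes 3 rose, from medians of 10.122 and 10.288 to 11.303 and 11.552. Of 5 colonocyte genes 3 fell, and of 13 acinar genes 3 fell. Their list medians on the 72 h arrays were 6.821 and 6.903 for colonocytes and 6.447 and 6.432 for acinar cells. These levels lie under the median of all probe set means, 7.028. In the lists of 6 enterocyte, 6 squamous, 5 parietal and chief cell and 5 B cell genes 1 each fell, where 12% of all probe sets fell. At 6 h 0 of the macrophage and 0 of the smooth muscle genes passed. The median level of the smooth muscle list was then 10.869 and 10.945, while the median of its genes' changes was 0.029. Their part in the changes of the p53 targets was not tested.

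In the colon 0 of the 10 passed at 1 h (0% of all probe sets passed), 0 at 6 h (0.2% rose), 0 at 24 h (0.29% rose) and 1, Plk2, at 72 h (0.892% rose). Unadjusted p was under 0.05 for 3, 4, 3 and 3 of the 10 at these times, against 14.9%, 14.1%, 16.7% and 17.2% of all probe sets. The median of the 10 was 0.037, 0.293, 0.232 and 0.001, against 0.016, 0.026, 0.025 and -0.016 over all probe sets. The count at 72 h was 0 when either 0 h array was left out. Without 72 h replicate 2 the change of Plk2 was 1.16 and that of Ccng1 1.04. Without 72 h replicate 1 the change of Plk2 was 0.67 and that of Gdf15 1.03. Each of these fits had 1 array left at 72 h. The colonic macrophage list lay at 6.869 and 6.949 at 0 h and 8.265 and 8.529 at 72 h, with 1 of 8 genes past the threshold, and its part in the rise of Plk2 was not tested.

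In the stomach 0 of the 10 passed at 1, 6, 24 or 72 h, where 0.0161%, 0.0322%, 0.0161% and 0.00644% of all probe sets changed. Unadjusted p was under 0.05 for 2 genes at 1 h and 2 at 6 h, and for 0 at 24 h and 0 at 72 h, against 5.72%, 8.83%, 8.34% and 7.56% of all probe sets. The median of the 10 was highest at 6 h, at 0.195 against 0.012 over all probe sets, and 7 of the 10 then had both arrays above both controls, against 22.8% of all probe sets.

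Over the whole time course, moderated F tests passed for 9 of the 10 in the jejunum, all but Ei24 (adjusted p = 0.164), where 19.2% of all probe sets passed. The smallest adjusted p was that of Sesn1 (0.00128), then Ccng1 (0.00371), Plk2 (0.00467) and Aen (0.0103). Ccng1, Plk2 and Sesn1 passed whichever of the 10 jejunal arrays was left out, and Aen in all cases but 1, the loss of 0 h replicate 1. The count was lowest there, at 3, and highest, at 10, with 24 h replicate 2 left out. It was 9 without 24 h replicate 1, and 4 without any other of the 7 arrays that remain. In the colon 2 of the 10 passed, Ccng1 and Gdf15, where 4.59% of all probe sets did. Ccng1 was lost without either replicate of 0 h, 1 h or 6 h and without 72 h replicate 1, and Gdf15 without either replicate of 0 h or 6 h and without 1 h replicate 2. In the stomach 0 of the 10 passed, where 0.0387% of all probe sets did.

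**Figure D3:**
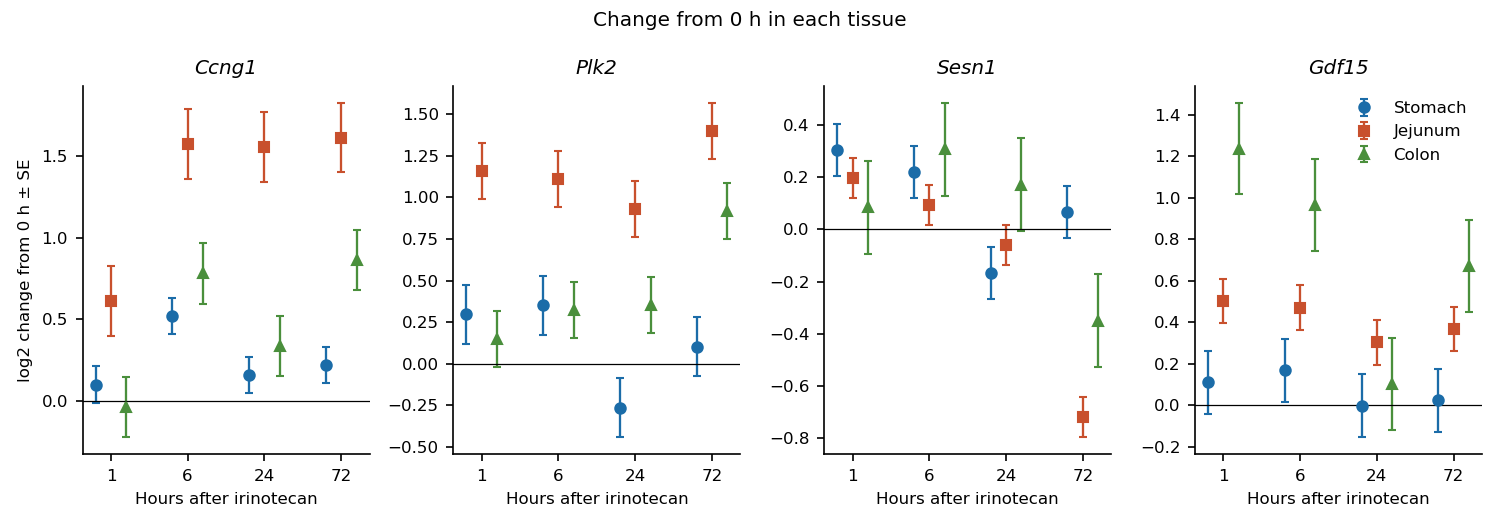
Log2 change from 0 h with its standard error for Ccng1, Plk2, Sesn1 and Gdf15 at 1, 6, 24 and 72 h (evenly spaced steps, not to scale) in stomach, jejunum and colon, 2 arrays a group. At 72 h jejunal Ccng1 stands at 1.61 and gastric Ccng1 at 0.22, and jejunal Sesn1 at -0.72 and gastric Sesn1 at 0.07.

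The tissues' responses were compared directly in 1 fit of all 30 arrays. At 72 h the response in the stomach differed from that in the jejunum for 3 of the 10 genes, where 2.75% of all probe sets differed. In the stomach 0 genes of the macrophage, enterocyte, squamous and acinar lists passed at 72 h, with median changes of 0.895, 1.006, 1.244 and 3.542 in that order, and their part in the differences was not tested. Ccng1 changed by 0.22 in the stomach and 1.61 in the jejunum, a difference of -1.40 (SE 0.28, adjusted p = 0.0134). For Plk2 the changes were 0.10 and 1.40, a difference of -1.30 (SE 0.27, adjusted p = 0.0154). Sesn1 changed by 0.07 and -0.72, a difference of 0.79 (SE 0.19, adjusted p = 0.0328). Ccng1 and Plk2 thus gained more in the jejunum, and Sesn1 lost more there.

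These differences depend on single arrays. The count of 3 became 0 when stomach 0 h replicate 1 was left out, and also 0 for jejunum 0 h replicate 2. It became 1 for jejunum 72 h replicate 1, where Plk2 remained, and 1 for its partner, replicate 2, where Ccng1 remained. The call of Sesn1 was lost without 7 of the 8 arrays compared, all but stomach 72 h replicate 2, at 0.75 to 0.83. Over the arrays left out the difference was -1.52 to -1.27 for Ccng1 and -1.40 to -1.20 for Plk2. Without the array with pancreatic transcripts, stomach 72 h replicate 1, and the others like it, Ccng1, Plk2 and Sesn1 all passed.

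No gene of the 10 passed for stomach against jejunum at 1, 6 or 24 h, where 0%, 0.11% and 0.00322% of all probe sets differed. The count was also 0 for jejunum against colon at the 4 times, where 0%, 0.393%, 0.164% and 0.886% differed, and for stomach against colon, where 0.00322%, 0.0129%, 0.11% and 0.226% did. These fits treat tissues of the same rats as independent. With time and replicate number as a random block, 2 differences passed at 24 h, Ccng1 in the jejunum against both the stomach and the colon. The interval of the difference was often wide. For Ccng1 at 24 h the jejunum gained 1.22 more than the colon, with a 95% interval from 0.63 to 1.81 before adjustment, and an adjusted p of 0.0848. For Gdf15 at 1 h the jejunum gained 0.73 less than the colon, a difference of -0.73 with an interval from -1.29 to -0.17, and an adjusted p of 0.396. The larger colonic change of Gdf15 is thus not shown to differ from the jejunal one.

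Before dosing some of the 10 genes differed between tissues, as many probe sets did, each read within its own probe set. For the pairs with the stomach the counts were near the share over all probe sets. Jejunum and colon differed for 7 of the 10, where 45.7% of all probe sets did: Sesn1 was higher in the jejunum by 1.44, Ei24 by 0.40, Bbc3 by 0.22 and Zmat3 by 0.19, while Plk2 (-0.95), Ccng1 (-0.70) and Mdm2 (-0.40) were lower there. Stomach and jejunum differed for 4, where 32.2% of all probe sets did, with Ccng1 (1.27) and Plk2 (0.79) higher in the stomach and Sesn1 (-0.95) and Ei24 (-0.37) lower. Stomach and colon differed for 3, where 33.1% did, with Ccng1 (0.57) and Sesn1 (0.49) higher and Mdm2 (-0.47) lower in the stomach. In order of level, Ccng1 at 0 h was highest in the stomach, at 9.95 and 9.70, then the colon, at 9.28 and 9.23, and lowest in the jejunum, at 8.61 and 8.49, and all 3 pairs passed. The genes that gained most in the jejunum, Ccng1 and Plk2, also had their lowest control level there. The 0 h arrays enter both quantities, so this is a description and no independent relation. Of the 14 calls between untreated tissues, 9 to 13 remained in number over the arrays left out, 9 without colon 0 h replicate 2.

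Of a wider list of 51 further p53 targets 35 were measured. In the jejunum 1 of 35 rose at 1 h, 2 at 6 h, 0 at 24 h and 8 at 72 h, and 0 fell at these times, where 0.0354%, 2.3%, 0.319% and 11.9% of all probe sets rose. Their median change at 6 h was 0.066. The gene of 1 h was Ddit4, an inhibitor of mTORC1, at 7.51 and 7.75 at 0 h and 9.27 and 9.17 at 1 h, a rise of 1.59 (adjusted p = 0.0446). At 6 h they were Ccng2, a relative of Ccng1, at 0.71 (adjusted p = 0.0352), and Epha2, an ephrin receptor, at 0.63 (adjusted p = 0.0413). At 72 h they included Phlda3, which restrains Akt, at 0.81 (adjusted p = 0.00385), Gpx1, a glutathione peroxidase, at 0.86 (adjusted p = 0.0108), Ddit4 at 0.74, Gtse1 at 0.33 and the sestrin Sesn2 at 0.41 (adjusted p = 0.0303). Sesn2 thus rose at the time at which its relative Sesn1 fell. In the colon 1 of 35 rose, Bid, a death-inducing relative of Bbc3, at 72 h (0.84, adjusted p = 0.0209), where 0.892% of all probe sets rose, and in the stomach 0 passed at any time.

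Of the genes that act on p53, 10 of 13 listed were measured. Mdm4, which holds p53 inactive beside Mdm2, was 8.30 and 8.40 at 0 h and 8.75 and 8.77 at 6 h in the jejunum, a change of 0.41 (adjusted p = 0.136), and 8.94 and 8.82 at 0 h and 8.42 and 8.56 at 6 h in the colon, a change of -0.39 (adjusted p = 0.416). H2ax, the histone marked at DNA breaks, fell in the jejunum at 6 h (-0.71, adjusted p = 0.0241) and in the colon at 6 h (-0.63, adjusted p = 0.0237) and 24 h (-0.91, adjusted p = 0.00422). In the jejunum at 72 h the checkpoint kinases Atr (0.42), Chek1 (0.52) and Chek2 (0.43) rose, while the p53 kinase Hipk2 (-0.37) fell. Thus 3 of the 10 rose at 72 h, where 11.9% of all probe sets rose. The 1 of 10 that fell is near the share over all probe sets, 12%. Chek1 fell in the colon at 24 h (-0.75, adjusted p = 0.0401). Of the 10 genes 1 fell in the jejunum at 6 h, where 1.19% of all probe sets fell. In the colon 1 fell at 6 h and 2 at 24 h, where 0.986% and 0.854% of all probe sets fell.

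p21 is known to lower cell cycle genes through the DREAM repressor complex, and 11 of 13 such genes listed were measured. In the jejunum at 6 h, when Cdkn1a rose, 9 of the 11 fell, with a median of -0.645, where 1.19% of all probe sets fell. Ccnb2, a mitotic cyclin, was 9.17 and 8.998 at 0 h and 7.68 and 7.58 at 6 h, a change of -1.46 (adjusted p = 0.00388). At 1 h and 24 h 0 of the 11 passed in the jejunum, with medians of -0.093 and -0.212. Cdkn1a changed there by 0.58 and 0.61 at these times, and neither change passed. At 72 h, with Cdkn1a back at 9.11 and 9.08, 10 of the 11 rose, with a median of 0.626, where 11.9% of all probe sets rose. In the colon 8 of the 11 fell at 6 h (median -1.194) and 8 at 24 h (median -1.010), where 0.986% and 0.854% of all probe sets fell, and 0 passed at 72 h (median 0.052). Ccnb2 there was 9.47 and 9.58 at 0 h and 7.08 and 7.61 at 6 h, a change of -2.18 (adjusted p = 0.000775). Colonic Cdkn1a, at 9.61 and 9.11 at 6 h against 9.36 and 8.88 at 0 h, did not pass. The jejunal call of Cdkn1a at 6 h passed under 3 of 7 other settings, and its second probe set changed by 0.02. The part of p21 in the changes of the cell cycle genes was not tested in any tissue. In the stomach 0 of the 11 passed, with a median of -0.436 at 6 h. At 1 h, when gastric Cdkn1a changed by 1.19 without passing, the median of the list was -0.090. Cell cycle genes are read in dividing cells, and a change in the number of those cells cannot be told apart from a change within them.

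**Figure D4:**
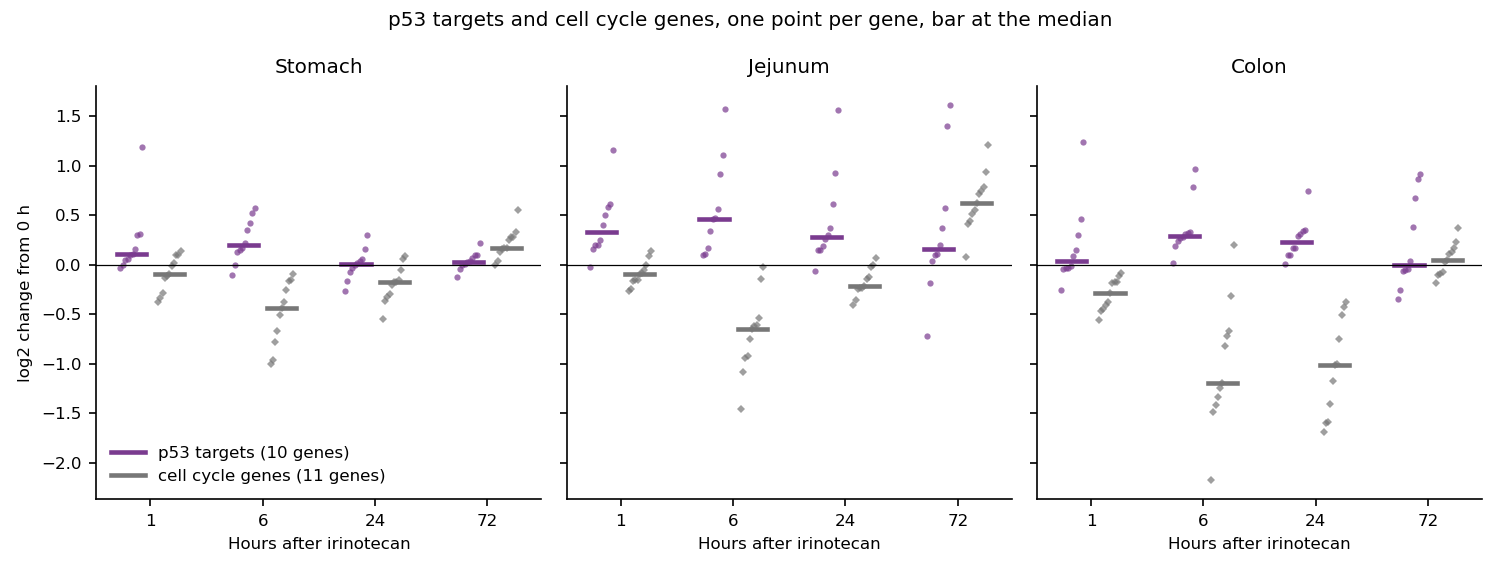
Log2 change from 0 h at 1, 6, 24 and 72 h (evenly spaced steps, not to scale) in each tissue, a point for each gene and a bar for the median, for the 10 p53 target genes and 11 cell cycle genes. In the jejunum at 6 h the medians are 0.463 and -0.645, and in the colon at 6 h 0.293 and -1.194.

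For the 3 members with the smallest F test p, the probe sets with the most similar course were found by the root-mean-square difference over 30 arrays of log2 values centred within each tissue. Sesn1 lay closest to Fahd1 (0.162), Ggnbp2 (0.163) and Mpnd (0.166), against a median of 0.287 over all probe sets. Ccng1 lay closest to 2 probe sets of Il6st (0.242 and 0.265) and to B3galnt1 (0.272), against a median of 0.507. Plk2 lay closest to Bhlhe40 (0.233), Tnfaip3 (0.246) and Mcl1 (0.251), against a median of 0.422. None of these neighbours is 1 of the 10 genes.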

How the data were processed

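The deposited values are log2 signals. The submitters' processing notes name RMA, and the sources used here do not give its version or say whether the authors ran it on all arrays at once. RMA compresses changes of dim probe sets, and no further scaling was applied. Of 31099 probe sets 57 controls were left out, and of the other 31042 there were 20826 with 1 symbol in the platform annotation, 436 with several and 9780 with none. Probe sets were tested with limma 3.58.1 in R 4.3.3. The 5 times of a tissue were fitted together, tissue differences in 1 fit of all 30 arrays, which treats tissues of the same rats as independent. Tests are two-sided, with Benjamini-Hochberg adjustment over 31042 probe sets and a threshold of 0.05. Errors are limma's standard errors. The number of arrays limits the precision. Groups were taken from sample titles. The motif search was tested on simulated data. Equal replicate numbers were not taken as pairs, since not all pairs of groups met the bar of 0.1: differences of replicate 1 from replicate 2 correlated between tissues of a time at -0.215 to 0.503, with all 3 pairs of 24 h over it (0.503, 0.358 and 0.319). The members and lists were chosen with earlier results of these data known. All 10 members were named, and from the other lists at most 6 genes past the threshold in a comparison, by smallest adjusted p, and Mdm4. Other settings tried were quantile normalization, a filter on dim probe sets, a limma trend with robust variances, array weights, a replicate block, a random block, other probe sets and leaving out arrays.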

Additional observations from a re-analysis of the deposited data

Results flagged for a closer look

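The responses of 3 genes differed between tissues under the same contrast, by limma's test of the difference of the responses at 72 h. Of all probe sets 2.75% differed there, and as said above the 3 calls depend on single arrays. The response of Ccng1 in the stomach minus that in the jejunum was -1.40, that of Plk2 was -1.30 and that of Sesn1 was 0.79. At that time 4 of 8 macrophage and 3 of 7 smooth muscle genes also rose in the jejunum, where 11.9% of all probe sets rose. The median changes over the lists were 0.730 and 0.803. In the stomach 0 genes of these lists passed, where 0.00644% of all probe sets changed, with median changes of 0.895 and 0.063. Their part in these differences was not tested.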

How the results depend on the processing

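Counts of members past the threshold moved under the following settings. With 1 fit of all 30 arrays the stomach's F test count went from 0 to 1 and the colon's from 2 to 7. Jejunum 1 h went from 0 to 1, where 0.0322% of all probe sets changed, and 24 h from 1 to 2 (0.222%). Colon 1 h went from 0 to 2 (0.335%) and 6 h from 0 to 2 (2.37%). Colon 24 h went from 0 to 1 (2.89%) and 72 h from 1 to 2 (2.54%). The colon's successive steps went from 1 to 6, where 0.702%, 1.2% and 11.5% of all probe sets changed. No such shares are given for the F tests of this fit or for the settings below. With array weights jejunum 1 h gave 1, the jejunum's successive steps 5 (2 before), colon 6 h 2, colon 72 h 2 and tissue differences at 6 h 5 (0 before). Quantile normalization gave 4 at jejunum 6 h (6 before, without Cdkn1a, Mdm2 and Zmat3 and with Gdf15), ended the step of Ccng1 from 1 h to 6 h, and gave 1 at colon 6 h, 2 at colon 72 h, 2 for the colon's steps and 4 for its F test. A trend with robust variances gave 1 for the jejunum's steps, 2 at colon 72 h and 4 for the colon's F test, and the dim filter gave 1 for that F test, since Gdf15 was not tested. The random block gave 2 tissue differences at 24 h (0 before). Without the arrays of high GAPDH gap jejunum 1 h gave 3, 24 h 2, the jejunum's steps 7, and tissue differences 1 at 6 h and 2 at 24 h, and without those with pancreatic transcripts the colon's steps gave 3. As a replicate block, the replicate number left 0 at jejunum 24 h, 1 for the jejunum's steps and 5 for its F test. It left 0 at colon 72 h and 1 for the colon's F test. At jejunum 6 h it ended the calls of Cdkn1a and Zmat3. No count beyond those given here changed by over 1.5 times under it. Whether equal numbers share rats is unknown. Of the correlations of replicate differences 11 of 30 within a tissue and 5 of 15 within a time were over 0.1, with all 3 of 24 h among the latter. With single arrays left out the counts ran from 0 to 1 for the stomach's steps, 0 to 0 at jejunum 6 h, 0 to 4 at 24 h, 4 to 4 at 72 h, 1 to 8 for the jejunum's steps, 3 to 10 for its F test, 0 to 2 at colon 72 h, 0 to 3 for the colon's steps, 0 to 3 for its F test, 0 to 3 for tissue differences at 24 h and at 72 h, and 9 to 13 for untreated tissues. Directions turned between neighbouring jejunal times. From 24 h to 72 h Ccng1 read -0.0484 after quantile normalization and -0.3579 to 0.4729 over the arrays left out, and from 6 h to 24 h 0.0215 and -0.4342 to 0.3965. From 6 h to 24 h Plk2 read -0.4821 to 0.1137 and Cdkn1a -0.6929 to 0.0864 over the arrays left out. Colonic Cdkn1a from 24 h to 72 h read 0.43 on its second probe set. The cause of these moves was not tested. With 2 arrays a group, and Gdf15 dim, small changes could not be seen.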
